A study of Rattus norvegicus with 4 samples.

Results

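The genes described here are 10 myofilament isoform genes that the heart uses in different proportions in fetal and adult life: the myosin heavy chains Myh6, Myh7 and Myh7b, the actins Acta1 and Actc1, the myosin light chains Myl2, Myl3, Myl4 and Myl7, and the slow skeletal troponin I gene Tnni1. They were taken by symbol from the 32623 genes of the count matrix, and each of the 10 had 1 row. Tnni3, the adult cardiac troponin I gene, was added as the partner of Tnni1. The study performed single-nucleus RNA sequencing on tissue labelled as infarct zone from the hearts of Sprague Dawley rats, with 4 samples of 1 library each. MI_1H, MI_6H and MI_24H came from animals with myocardial infarction, and Sham was the control. The treatment labels call the 1, 6 and 24 h times of reperfusion, while the study's own design text gives those hours to ligation of the left anterior descending artery and lists reperfused hearts apart, so the meaning of these hours stays unclear. The sources used here give neither the number of animals behind a library nor their age or sex.

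All nuclei were in 1 matrix whose barcodes carry a suffix of 1 to 4, and no source ties a suffix to a sample. The libraries are therefore called libraries 1 to 4 by their suffix, values are given for each, and no difference between them can be assigned to infarction, to a time or to sham. With 1 library each and nuclei that are not replicates, there is no test between libraries. Intervals are exact 95% intervals (Clopper-Pearson for shares, Poisson for levels) and cover counting error only.

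As background, myosin heavy chain is the motor of the thick filament. In the rodent ventricle Myh6, the fast alpha chain, is the adult form, and Myh7, the slower beta chain, is the fetal form that returns under load or injury. Myh7b is a related slow-type chain. In the thin filament Actc1 encodes cardiac alpha-actin and Acta1 skeletal alpha-actin, which is high in the developing rodent heart and returns with stress. Myl2 and Myl3 are the ventricular regulatory and essential light chains, Myl7 and Myl4 are their atrial counterparts, and Myl4 and Tnni1 are also used by the fetal ventricle.

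The 3 myosin genes each host microRNAs, and these are shown because they lie within the isoform genes compared here. Of the mature rat microRNAs in RefSeq (build GRCr8), 7 lay inside 3 of the members, all on the host's own strand except rno-miR-3546, which lies opposite to Myh6. One arm of each host's microRNA is printed 5′ to 3′ with the seed, bases 2 to 8, in capitals. They lie at chr15:32395568-32395585 on the minus strand (inside Myh6), chr15:32421648-32421665 on the minus strand (inside Myh7) and chr3:164570616-164570636 on the plus strand (inside Myh7b).
rno-miR-208a-3p: aUAAGACGagcaaaaagc
rno-miR-208b-3p: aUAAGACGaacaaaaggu
rno-miR-499-5p: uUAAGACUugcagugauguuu
The arms hosted by Myh6 and Myh7 had the same seed, UAAGACG, and the arm hosted by Myh7b had UAAGACU. Mature microRNAs were not measured by these libraries, so the values that follow are those of the host genes.

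Acta1 and Myl3 are shown as promoters because, among the members with enough counts, Acta1 varied most between libraries and Myl3 least, and both windows held a CArG box, the 10-base site of serum response factor. Each stretch is the 200 bases before the RefSeq start (GRCr8), 5′ to 3′ on the gene's own strand, at chr19:68784195-68784394 (minus) for Acta1 and chr8:119616894-119617093 (plus) for Myl3. Capitals mark CArG boxes and MCAT elements (CATTCC on either strand, the site of TEAD factors).
Acta1: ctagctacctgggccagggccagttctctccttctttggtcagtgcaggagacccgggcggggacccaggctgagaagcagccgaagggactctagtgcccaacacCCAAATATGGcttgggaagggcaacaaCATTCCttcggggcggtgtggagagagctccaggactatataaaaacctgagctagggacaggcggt
Myl3: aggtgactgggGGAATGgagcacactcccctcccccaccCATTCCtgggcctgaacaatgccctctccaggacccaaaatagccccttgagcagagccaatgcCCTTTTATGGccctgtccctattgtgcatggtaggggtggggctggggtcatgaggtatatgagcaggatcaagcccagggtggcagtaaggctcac
Of the 10 members, 9 were matched in the promoter table and Myl2 was not. In windows from 250 bases before to 50 after the start, a CArG box was found for 3 of the 9 (Acta1, Actc1 and Myl3), against 1.64% of 33469 promoters. An MCAT element was also found for 3 of the 9 (Myh6, Acta1 and Myl3), against 14.2% of all promoters. In the Acta1 window the CArG box began at base -94 and the MCAT element at base -67, counting the base before the start as -1, and in the Myl3 window the CArG box began at base -97. A match of letters is not a site in use.

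Cardiomyocyte-like nuclei were those with at least 10 UMIs (unique molecular identifiers, each a captured RNA molecule) over Ryr2, Rbm20, Trdn, Mlip and Fhod3. They numbered 2723, 443, 1080 and 714 in libraries 1 to 4, 4960 of the 41728 nuclei kept. Nuclei just inside the limit, with 10 or 11 such UMIs, numbered 28, 27, 39 and 15, and nuclei just outside it, with 8 or 9, numbered 48, 69, 47 and 19. Of 6 further cardiomyocyte markers that the gate did not use (Tnnt2, Actn2, Corin, Sorbs2, Pln and Mybpc3), 5 were at least 2-fold higher in these nuclei than in nuclei of other classes in all 4 libraries, and Pln fell short in library 2. The other classes were endothelial-like, fibroblast-like, macrophage-like, mural-like, neutrophil-like and lymphocyte-like nuclei, 3366, 2214, 7504 and 3590 in all, named from their markers alone. Fibroblast-like nuclei of libraries 3 and 4 had only 1 of their own markers among their 10 leading genes.

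Depth and purity differed between libraries. Totals ranged from 14296637 to 51913291 UMIs, and the median UMI count was 2627, 2665, 4642 and 5198 in cardiomyocyte-like nuclei against 1007, 690, 1996.5 and 2200.5 in nuclei of other classes. Library 2 stood apart: cardiomyocyte-like nuclei were 3.43% of its nuclei, against 32.6%, 7.56% and 11.6% in libraries 1, 3 and 4, and they held 48.2% of its UMIs of the 5 gate genes, against 95.1%, 89.9% and 94.1%. Markers of the other classes summed to 1549, 3947, 6213 and 4173 CPM (counts per 1000000 UMIs of the class) in cardiomyocyte-like nuclei, against 8735, 7901, 10779 and 8759 CPM in the other classes. No marker of the endothelial, fibroblast, macrophage, mural or neutrophil lists was at 0 in cardiomyocyte-like nuclei. Of 48372 distinct barcodes, 264 occurred in more than 1 library, 46 of them as cardiomyocyte-like nuclei.

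In every library the CPM levels of Myh6 and Myh7 were higher in cardiomyocyte-like nuclei, and Myh6 spread more widely between libraries than Myh7. Myh6 stood at 6366, 2846, 1078 and 916 CPM in cardiomyocyte-like nuclei of libraries 1 to 4, against 586, 522, 215 and 205 CPM in the other classes. It was thus highest in library 1 and lowest in library 4, a span of 6.95-fold, and its ratio of cardiomyocyte-like to other nuclei lay between 4.48 and 10.9. Myh7 stood at 830, 705, 571 and 833 CPM in cardiomyocyte-like nuclei, against 78.8, 277, 103 and 160 CPM in the other classes. Its span over libraries was 1.46-fold, with libraries 1 and 4 inside each other's intervals, and it was 10.5-fold, 2.54-fold, 5.52-fold and 5.22-fold higher in cardiomyocyte-like nuclei. At matched depth, in nuclei of 2000 to 5000 UMIs of both kinds, the ratios in libraries 1 to 4 were 23.9, 14.1, 7.82 and 7.63 for Myh6 and 21.1, 4.97, 8.41 and 6.63 for Myh7. The other classes kept the limit of fewer than 3 gate UMIs in this range. In library 1 their Myh6 was 0.748 UMIs per nucleus there against 0.727 at all depths, but 269 CPM against 586 CPM. Medians stayed unequal, at 3047 UMIs in cardiomyocyte-like against 2649 in other nuclei of library 2. How far this raised the ratios was not tested. Cardiomyocyte-like nuclei held 92.3%, 46.3%, 47.9% and 53.9% of all Myh6 UMIs and 91.8%, 27.0%, 49.8% and 57.4% of all Myh7 UMIs in the nuclei kept, so in libraries 2 and 3 most UMIs of both lay in nuclei under the gate. The 2 genes are neighbours with closely similar coding sequences, and the sources used here do not say how reads that fit both were counted, so their split carries that uncertainty.

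The beta chain's share of the pair, Myh7 over Myh6 plus Myh7, was 11.5% (interval 11.3 to 11.8%), 19.9% (18.95 to 20.8%), 34.6% (33.7 to 35.5%) and 47.6% (46.6 to 48.7%) in cardiomyocyte-like nuclei of libraries 1 to 4, from 61667, 7480, 11318 and 8300 UMIs. No interval overlapped that of another library. In nuclei of the other classes, which should not make either chain, the share was 11.8%, 34.7%, 32.4% and 43.9%. In libraries 1, 3 and 4 that background differed from the cardiomyocyte-like share by less than 4 percentage points. In library 2 it lay well above it, and the endothelial-like, fibroblast-like and mural-like nuclei of that library gave 37.6%, 34.0% and 35.8%, each with an interval that held the pooled 34.7%.

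**Figure D1:**
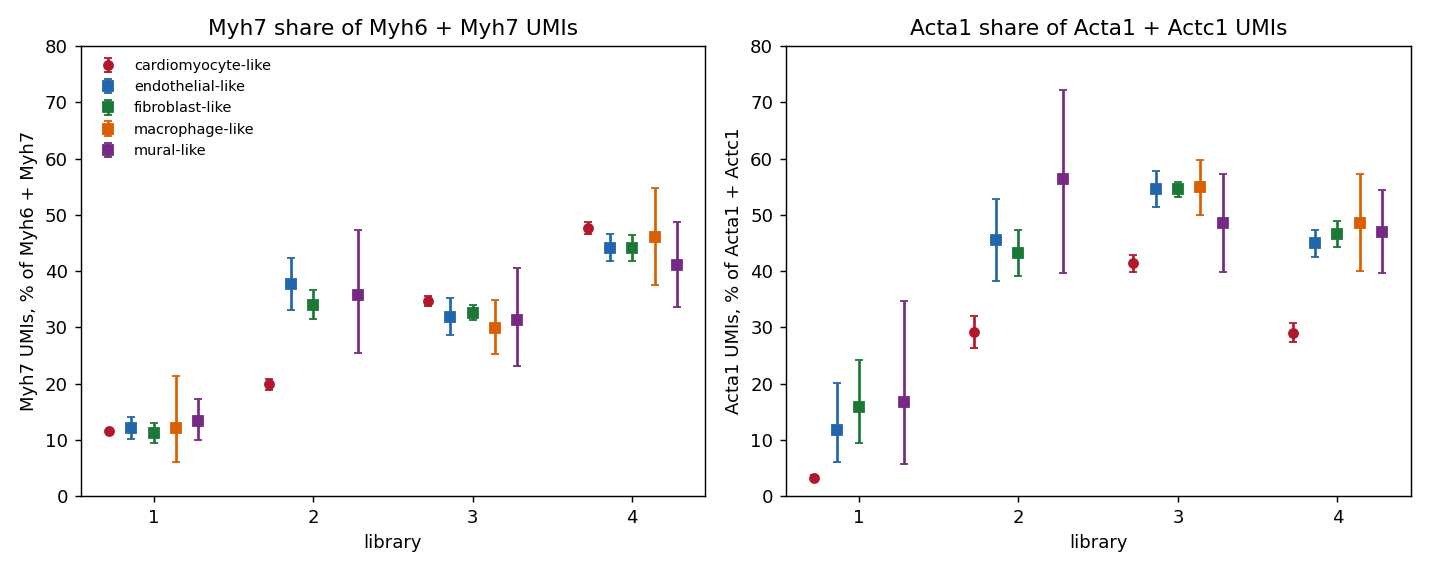
Share of Myh7 among Myh6 plus Myh7 UMIs (left) and of Acta1 among Acta1 plus Actc1 UMIs (right), in percent, by library (x axis) and class (colour), with exact 95% intervals as bars. Neutrophil-like and lymphocyte-like nuclei are not drawn. Classes with fewer than 50 nuclei or fewer than 20 UMIs of the pair in a library are left out. The cardiomyocyte-like Myh7 share is 11.5, 19.9, 34.6 and 47.6% in libraries 1 to 4, and the cardiomyocyte-like Acta1 share lies below those of the other classes shown in each library.

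Myh7b had the highest ratio of cardiomyocyte-like to other nuclei among the 7 members with enough counts in libraries 1, 3 and 4, but not in library 2, where Myh6 had it. It stood at 779, 198, 87.6 and 149 CPM in cardiomyocyte-like nuclei, against 45.0, 45.3, 4.85 and 4.49 CPM in the other classes, that is 17.3-fold, 4.38-fold, 18.1-fold and 33.3-fold higher. At matched depth the ratios were 40.9, 9.13, 29.7 and 45.0. Library 1 was highest and library 3 lowest, 8.90-fold apart. As a share of the UMIs of all 3 heavy chains it made up 9.77%, 5.29%, 5.04% and 7.87% in cardiomyocyte-like nuclei, against 6.34%, 5.36%, 1.4995% and 1.22% in the other classes. The intervals of libraries 2 and 3 overlapped (4.81 to 5.81% and 4.66 to 5.45%).

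The actins behaved differently from the heavy chains. Acta1 stood at 16.9, 136, 256 and 171 CPM in cardiomyocyte-like nuclei of libraries 1 to 4, against 8.14, 158, 203 and 168 CPM in the other classes. Library 1 was the low one and the span was 15.1-fold, the widest of the 7 members with enough counts. In library 1 it was 2.08-fold higher in cardiomyocyte-like nuclei. In libraries 2, 3 and 4 the level in cardiomyocyte-like nuclei was 0.860-fold (interval 0.735 to 1.01), 1.26-fold (1.19 to 1.33) and 1.02-fold (0.937 to 1.11) that of the other classes. At matched depth Acta1 had 67 UMIs in cardiomyocyte-like nuclei of library 1 against 1 in the other classes (ratio 15.7, interval 2.73 to 631), and the ratios were 2.03 (interval 1.43 to 2.92), 1.77 (1.60 to 1.95) and 1.12 (0.949 to 1.31) in libraries 2, 3 and 4. In library 4 Acta1 was thus not above the other classes beyond counting error in either comparison, and in library 2 it was above them at matched depth alone. In library 2 the other classes stood at 83.8 CPM at matched depth, under the same limit on gate UMIs, against 158 CPM at all depths. The part of that limit in the ratio was not tested. Counted per nucleus, Acta1 gave 0.646, 1.63 and 1.14 UMIs in cardiomyocyte-like nuclei against 0.168, 0.537 and 0.499 UMIs in the shallower nuclei of other classes.

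Actc1, the adult partner, stood at 512, 331, 362 and 419 CPM in cardiomyocyte-like nuclei, against 48.6, 199, 169 and 196 CPM in the other classes. It was 10.5-fold higher in cardiomyocyte-like nuclei of library 1 and 1.67-fold, 2.14-fold and 2.13-fold higher in libraries 2 to 4, and its own span was 1.55-fold. At matched depth the ratios were 29.2, 3.59, 3.20 and 2.88. The Acta1 share of the pair was 3.20% (2.71 to 3.76%), 29.1% (26.3 to 32.0%), 41.4% (39.9 to 42.9%) and 29.0% (27.3 to 30.7%) in cardiomyocyte-like nuclei, against 14.3%, 44.3%, 54.6% and 46.1% in the other classes. It was below the background share in all 4 libraries, and libraries 2 and 4 did not differ beyond their intervals. With the CPM of the other classes subtracted, an alternative chosen after seeing the data, the share in libraries 1 to 4 was 1.86%, 0%, 21.4% and 1.41%. The 0% of library 2 is a floor, not a measured share. Acta1 there stood at 136 CPM in cardiomyocyte-like nuclei against 158 CPM in the other classes, and a remainder below 0 was set to 0. RefSeq lists pseudogenes of both actins, and reads that fit more than 1 copy add to the uncertainty of this split.

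Nuclei were also sorted by their UMIs of the gate genes, a count that went with depth as well. Median UMI counts were 894, 579, 1709 and 1781 in nuclei with 0 gate UMIs of libraries 1 to 4. In nuclei with 100 or more they were 5414, 5992, 8274 and 8107. Depth and the amount of cardiomyocyte RNA cannot be told apart in these bins. In library 2 the Myh7 share was 36.0%, 36.3% and 37.3% in nuclei with 0, 1 to 2 and 3 to 9 gate UMIs, then 29.9%, 20.4%, 22.1% and 15.4% in nuclei with 10 to 19, 20 to 49, 50 to 99 and 100 or more. In library 1 the same bins stayed between 11.1% and 13.5%. Library 3 ran from 31.7% to 38.2% and library 4 from 42.9% to 57.6%, with no steady direction. The Acta1 share was lower at 100 or more gate UMIs than at 0 in all 4 libraries, at 2.65% against 17.1%, 23.6% against 42.6%, 37.1% against 54.3% and 23.2% against 46.1%.

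**Figure D2:**
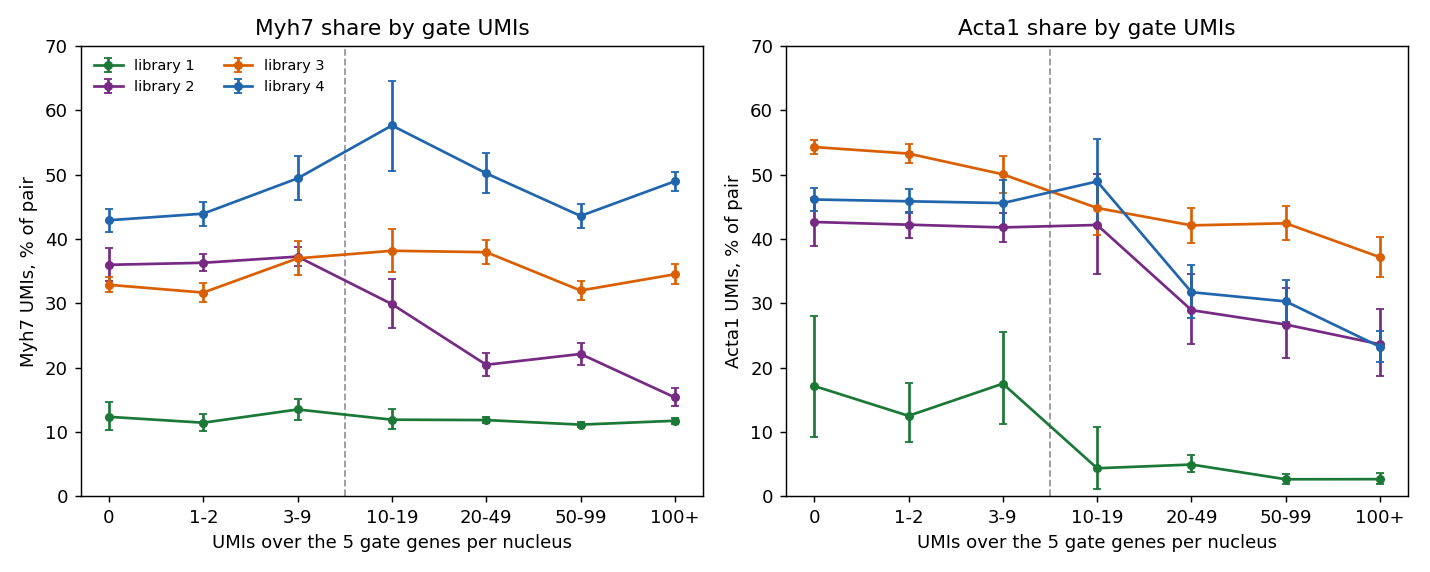
Myh7 share (left) and Acta1 share (right) of their pair, in percent with exact 95% intervals, against the UMIs of the 5 gate genes in a nucleus, with a line for each library. The dashed line marks the gate of 10 UMIs. Nuclei at 100 or more also had higher median UMI counts than nuclei at 0 in every library. In library 2 the Myh7 share is 36.0% at 0 and 15.4% at 100 or more, and the Acta1 share is lower on the right than on the left in every library.

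Both ventricular light chains had more CPM in cardiomyocyte-like than in other nuclei in every library. Myl2, the regulatory light chain, stood at 737, 249.3, 458 and 505 CPM in cardiomyocyte-like nuclei, against 135, 113, 236 and 309 CPM in the other classes. Library 1 was highest and library 2 lowest, 2.96-fold apart, and the excess over the other classes was 5.47-fold, 2.21-fold, 1.94-fold and 1.63-fold, or 11.2-fold, 7.45-fold, 3.06-fold and 2.48-fold at matched depth. Myl3, the essential light chain, stood at 907, 645, 626 and 674 CPM in cardiomyocyte-like nuclei, against 138, 405, 269 and 305 CPM in the other classes. Its span was 1.45-fold, the narrowest of the 7, and libraries 2, 3 and 4 overlapped in part (611 to 680, 607 to 645 and 651 to 698 CPM). Its ratios to the other classes at matched depth were 14.3, 3.93, 3.38 and 3.33.

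The atrial and fetal forms Myl4, Myl7 and Tnni1 were hardly present. In libraries 1 to 4 Myl4 had 6, 6, 12 and 10 UMIs in cardiomyocyte-like nuclei, against 2, 7, 47 and 18 in the other classes, which made 0.0771%, 0.440%, 0.279% and 0.312% of Myl3 plus Myl4 UMIs in cardiomyocyte-like nuclei. Myl7 had 15, 1, 9 and 4 UMIs in cardiomyocyte-like nuclei, against 1, 6, 28 and 20 in the other classes, or 0.237%, 0.190%, 0.286% and 0.167% of Myl2 plus Myl7 UMIs in cardiomyocyte-like nuclei. Tnni1 had 23, 10, 1 and 2 UMIs in cardiomyocyte-like nuclei, against 3, 8, 9 and 25 in the other classes, or 0.0866%, 0.370%, 0.0217% and 0.0382% of Tnni1 plus Tnni3 UMIs in cardiomyocyte-like nuclei.

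In CPM, the 3 genes differed between cardiomyocyte-like and other nuclei beyond counting error in 3 cases when nuclei of all depths were used. In library 1 Myl7 stood at 1.75 CPM in cardiomyocyte-like nuclei against 0.239 CPM in the other classes (ratio 7.31, interval 1.12 to 308). Tnni1 in library 1 stood at 2.68 CPM in cardiomyocyte-like nuclei against 0.718 CPM in the other classes (ratio 3.74, interval 1.13 to 19.4). In library 4 Tnni1 was lower in cardiomyocyte-like nuclei, at 0.421 CPM against 2.34 CPM in the other classes (ratio 0.180, interval 0.0207 to 0.722). None of the 3 held in nuclei of 2000 to 5000 UMIs. There Myl7 and Tnni1 had 5 and 4 UMIs in cardiomyocyte-like nuclei of library 1 against 0 and 0 in the other classes, with intervals of the ratio that began at 0.215 and 0.155, and Tnni1 had 0 against 5 in library 4 (interval 0 to 4.98). Myl4 did differ there in library 4, with 7 UMIs in cardiomyocyte-like nuclei against 6 in the other classes (ratio 5.32, interval 1.53 to 19.2), but 1 nucleus held 4 of the 10 Myl4 UMIs of all its cardiomyocyte-like nuclei. Sln, an atrial marker that encodes sarcolipin, had 1, 0, 0 and 1 UMIs in cardiomyocyte-like nuclei. The other atrial markers were mixed. In cardiomyocyte-like nuclei Bmp10 reached 0.632 CPM at most and Kcna5 was at 0 CPM. Kcnj3 stood at 772, 133, 165 and 244 CPM, and Dkk3, Nppa, Nr2f1 and Nr2f2 were above Sln, Bmp10 and Kcna5 in every library. Tnni3, the adult troponin I, stood at 3097, 1279, 671 and 1104 CPM in cardiomyocyte-like nuclei, against 173, 541, 168 and 229 CPM in the other classes.

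**Figure D3:**
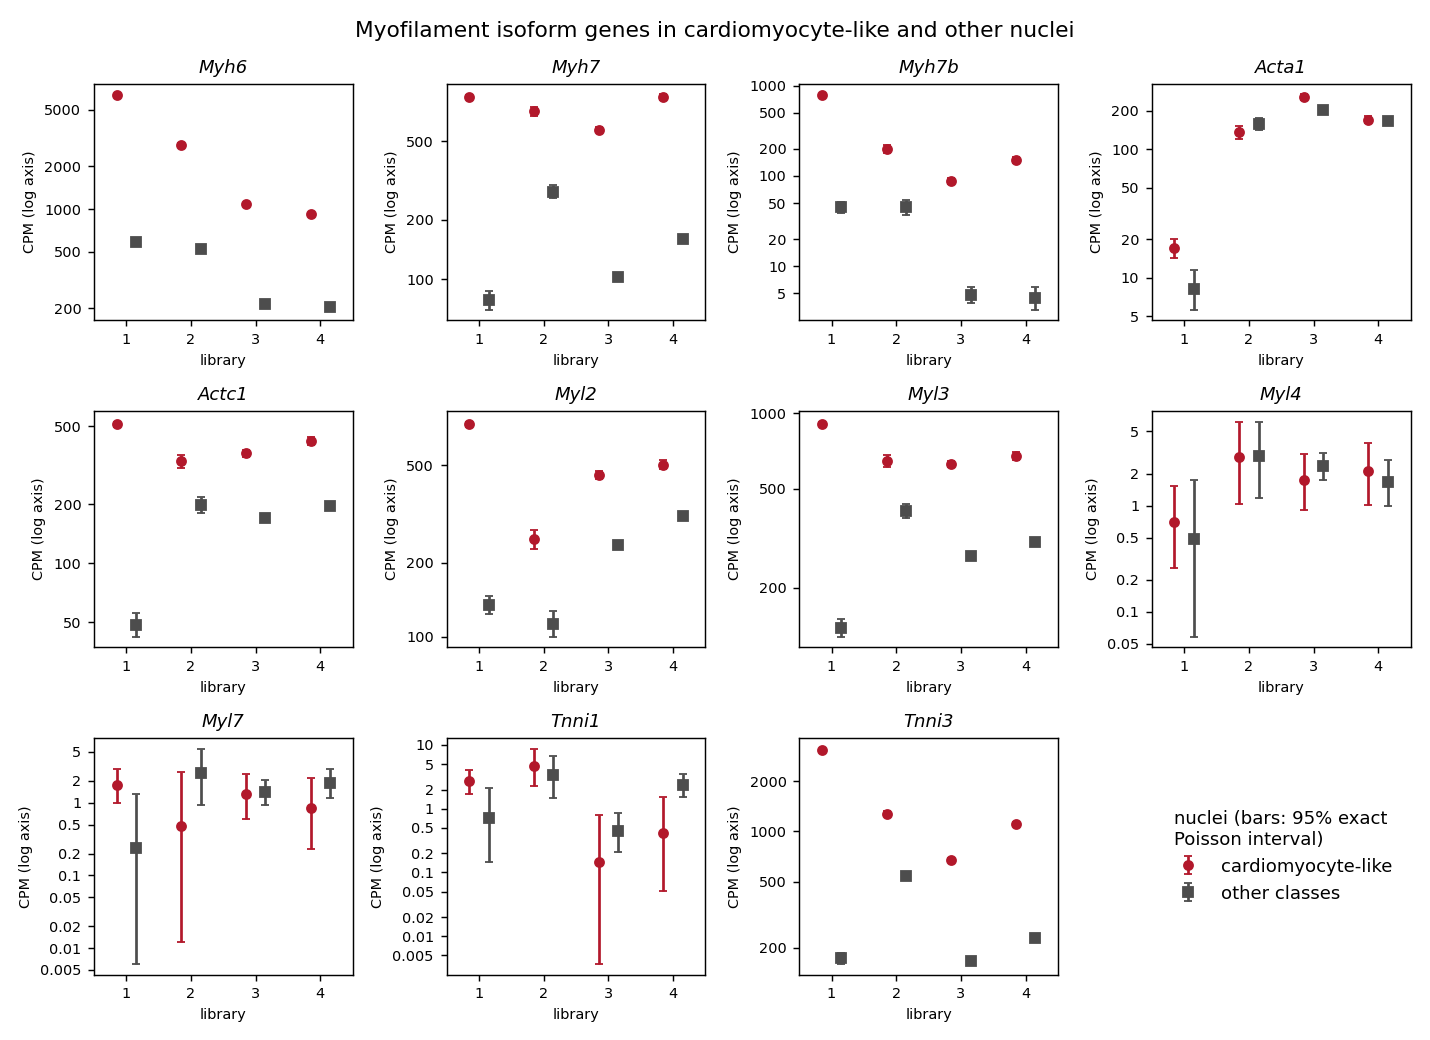
Level of the 10 members and Tnni3 in CPM (log axis) in libraries 1 to 4, with cardiomyocyte-like nuclei as red circles left of the other classes as grey squares, and exact 95% Poisson intervals as bars. Myh6 is highest in library 1 at 6366 CPM and lowest in library 4 at 916 CPM, Acta1 overlaps or nearly meets the other classes in libraries 2 to 4, and Myl4, Myl7 and Tnni1 stay below 5 CPM.

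Counted against all genes, 7 members had the 30 UMIs per library needed, and Myl4, Myl7 and Tnni1 did not. On the log2(CPM + 10) scale 3 of the 7 (Myh6, Myh7 and Myh7b) were at least 2-fold higher in cardiomyocyte-like nuclei in all 4 libraries, where 2.98% of 10440 genes were. In single libraries 6, 4, 5 and 5 of the 7 were, where 7.83%, 3.48%, 4.86% and 6.25% of genes were. Without library 2 the count over all libraries was 5, with Actc1 and Myl3 added, where 4.14% of genes were, and in nuclei of 2000 to 5000 UMIs it was 6, with Myl2 as well, where 4.45% were. The median log2 difference over the 7 was 3.15, 1.08, 1.19 and 1.12 in libraries 1 to 4, against -0.53, -0.20, -0.22 and -0.29 over all genes tested. A span of at least 2-fold between libraries was found for 4 of the 7 (Myh6, Myh7b, Acta1 and Myl2), which is near the 43.3% of genes that had one, and a span of at least 4-fold for 3 (Myh6, Myh7b and Acta1), where 10.5% of genes had one.

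Other filament genes followed the cardiomyocyte-like nuclei to different degrees. Of the thick filament list 5 of 5 genes tested were at least 2-fold higher in all 4 libraries, with a median log2 difference of 3.90, where 2.98% of all genes tested were and their median was -0.28. Mylk3, the cardiac myosin light chain kinase, was among the highest of them. Myom2, an M-band protein, and Mybpc3, cardiac myosin-binding protein C, were the lowest by their median over libraries, although Mybpc3 had the highest log2 difference of the 5 in library 1 (4.68) and Myom2 in library 2 (2.45). Of the thin filament list 6 of 9 were, against the same 2.98%, with a median of 1.68. Actn2, the Z-disc alpha-actinin, led with Tnnt2, cardiac troponin T, while Tnnc1, the slow and cardiac troponin C, and the tropomyosin gene Tpm3 were lowest, and Tpm3 was at 43.4, 157, 217 and 156 CPM in cardiomyocyte-like nuclei against 71.6, 163, 305 and 254 CPM in the other classes.

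Few skeletal, smooth muscle and embryonic isoforms could be tested. Of 14 such genes in the matrix 10 fell under the count minimum, and of the 4 tested none was 2-fold higher in all libraries, where 2.98% of genes were, with a median log2 difference of -0.50. That count could not have included Mybpc2, Tnnt3 or Acta2. In cardiomyocyte-like nuclei of library 1 they were at 7.82, 4.90 and 4.90 CPM, and with 10 CPM added a gene under 10 CPM cannot reach 2-fold. Mybpc2, the fast skeletal myosin-binding protein C, and Myh11, the smooth muscle heavy chain, were the highest of the 4, and Tnnt3, fast skeletal troponin T, and Acta2, smooth muscle actin, the lowest. Mybpc2 was at 7.82, 30.9, 15.4 and 14.96 CPM in cardiomyocyte-like nuclei, against 0.479, 13.1, 1.72 and 2.34 CPM in the other classes. Its ratios were 16.3, 2.35, 8.99 and 6.39, each with an interval above 1, and on the log2(CPM + 10) scale it passed 2-fold in libraries 3 and 4 (1.12 and 1.02). Myl1, a fast skeletal light chain under the count minimum, had 13 UMIs in cardiomyocyte-like nuclei against 4 in the other classes in library 3 (ratio 9.37, interval 2.90 to 39.5), and 17 against 10 in library 4 (ratio 3.83, interval 1.66 to 9.35).

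Among 16 tested regulators of these genes 5 were at least 2-fold higher in all 4 libraries, where 2.98% of all genes were, and the median log2 difference was 0.34. Myocd, the cardiac and smooth muscle co-activator of serum response factor, and Tbx5, a cardiac T-box factor, were the highest. Mrtfa, a related co-activator, and Tead4, a factor that binds MCAT elements, were the lowest. Of the 4 fetal programme companions 2 passed, against the same 2.98%, Xirp2 and Ankrd1, and Nppb and Nppa did not. Of the atrial markers 1 of 5 passed, against the same 2.98%, Kcnj3, with Nppa next and the factors Nr2f1 and Nr2f2 lowest. Neither of the ventricular markers tested, Irx4 and Hey2, passed in all 4 libraries, against the same 2.98%. Neither could have passed, because Irx4 was at 9.47 CPM in cardiomyocyte-like nuclei of library 3 and Hey2 at 5.70 CPM in those of library 2. Under 10 CPM, the added 10 CPM keeps a gene below 2-fold whatever the other classes hold. The same limit held in library 1 for Tead4, Nr2f1 and Nr2f2, at 3.38, 1.63 and 2.22 CPM.

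Some genes ran closely with a member over the 21 sums of class and library with at least 50 nuclei, among 10575 genes compared. The measure was Pearson's r of log2(CPM + 10), given as a description because the sums share libraries, depth and free RNA. Myh6 was most like Myh7b (r = 0.95), Myom2 (0.95) and Tecrl (0.94). Myh7 was most like Tnnt2 (0.96), Tnni3 (0.95) and Trim54 (0.95). Acta1 was most like Nppa (0.98) and Mt-nd3 and Atp5me, which encode mitochondrial proteins (0.97 each). Myl7 was most like Prdx3 (0.86), Klhl25 (0.78) and Tmem41a (0.75), on 29 UMIs of Myl7 in cardiomyocyte-like nuclei. Its highest sum, 9.36 CPM in mural-like nuclei of library 2, was 1 UMI, and the next highest was 2.98 CPM. These 3 values of r therefore lean on a single UMI and say little about Myl7. Between members, Myh7 and Myl3 had r = 0.92, Actc1 and Myl3 0.89, and Myh6 and Acta1 -0.44.

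Single nuclei varied widely in the isoform they carried. In cardiomyocyte-like nuclei with at least 10 UMIs of Myh6 plus Myh7, 2304, 269, 401 and 303 in libraries 1 to 4, the median Myh7 share was 4.17%, 9.09%, 25% and 41.7%. Nuclei over 80% Myh7 numbered 27, 14, 51 and 77, and nuclei under 20% numbered 1791, 173, 168 and 81. The nucleus's own exact interval left out the pooled share in 26.4%, 34.9%, 47.1% and 58.7% of nuclei. In library 4 the shares spread over the whole range, and 25.4% of nuclei lay over 80% while 26.7% lay under 20%. Within 5 percentage points of either limit lay 220, 36, 79 and 59 nuclei. The bands are cuts set on this spread, and whether nuclei form separate types was not tested. Acta1 and Actc1 had 10 UMIs together in 13, 11, 83 and 49 nuclei, and the median Acta1 share was 38.5% in library 3 and 26.7% in library 4.

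**Figure D4:**
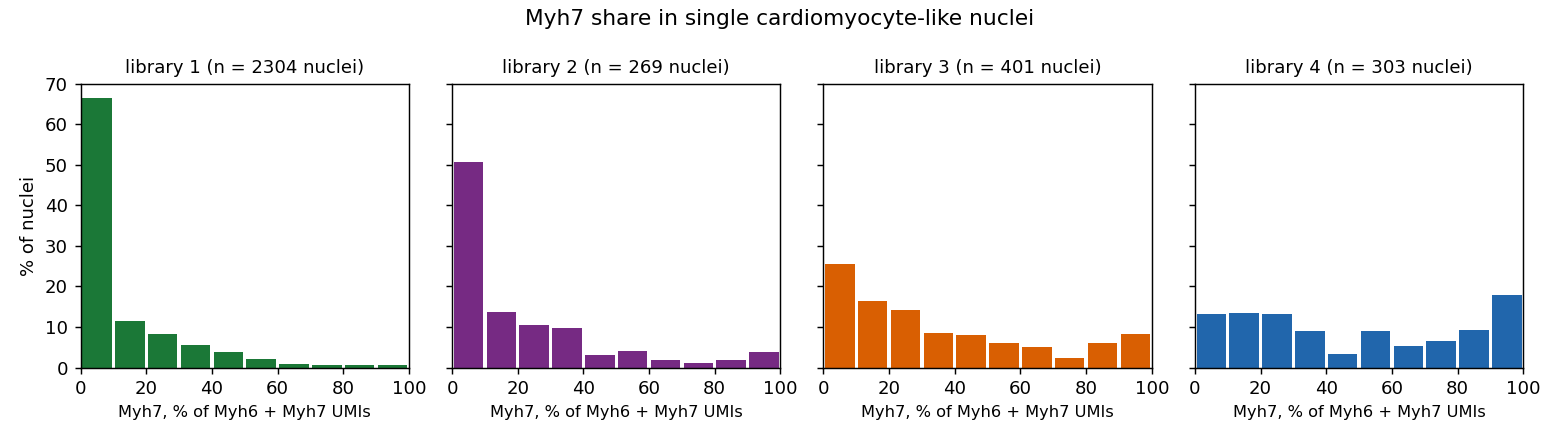
Percent of cardiomyocyte-like nuclei (y axis) by their Myh7 share of Myh6 plus Myh7 UMIs in steps of 10 percentage points (x axis), for nuclei with at least 10 UMIs of the pair, in libraries 1 to 4. In library 1 the bar nearest 0 holds 66.4% of nuclei, and in library 4 nuclei lie along the whole axis, 25.4% of them over 80%.

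Nuclei of high and low Myh7 share were then compared within libraries 3 and 4, the 2 with over 50 nuclei in both bands. The bands were set after the spread was seen, from Myh7 and Myh6 themselves, so these genes are left out, as is the microRNA feature Mir3546, which lies inside Myh6. In library 3, 51 nuclei over 80% (high share) were set against 168 under 20% (low share), and in library 4, 77 of high against 81 of low share. Median UMI counts were 6343 in nuclei of high against 4636 in nuclei of low share in library 3, and 7540 against 4898 in the same order in library 4. Summed markers of other classes stood at 4492 CPM in nuclei of high against 6011 CPM in nuclei of low share in library 3, and at 3631 CPM of high against 4771 CPM of low share in library 4. The part of depth and of other RNA in the differences was not tested.

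All 4 fetal programme companions were higher in the nuclei of high Myh7 share. Xirp2, an actin-binding protein of the intercalated disc, stood at 4408 CPM in nuclei of high against 857 CPM in nuclei of low share in library 3, and at 5651 against 822 CPM in library 4, or 5.15-fold and 6.88-fold higher. Its median over single nuclei lay lower, at 1444 CPM for high against 425 CPM for low share in library 3, and 1228 CPM for high against 545 CPM for low share in library 4. Ankrd1, a stretch-responsive nuclear and titin-binding protein, was 3.68-fold and 3.52-fold higher. Its median over single nuclei was 4283 CPM for high against 681 CPM for low share in library 3, and 3301 against 606 CPM in library 4. The natriuretic peptide genes Nppb (3.04-fold and 2.93-fold) and Nppa (2.78-fold and 2.63-fold) were higher as well. The median of Nppb was 276 CPM for high against 0 CPM for low share in library 3, and 341 against 75.7 CPM in library 4. That of Nppa was 600.4 CPM for high against 153 CPM for low share in library 3, and 346 against 231 CPM in library 4, so the order of the 4 genes differed between sums and medians. Over 6463 genes tested, 0.588% were at least 2-fold higher in both libraries and 0.248% at least 2-fold lower.

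Among the 5 other members tested in these bands, none passed 2-fold in either direction in both libraries, a count that the 0.588% and 0.248% over all genes would also give. Myh7b was lower in nuclei of high Myh7 share, at 31.5 CPM against 179 CPM in nuclei of low share in library 3 and 131 CPM against 271 CPM in nuclei of low share in library 4, ratios of 0.176 and 0.484. With 10 CPM added its log2 difference was -2.19 and -0.99, so library 4 fell just short. Myl2 was lower as well, at 0.698 and 0.789 of its level in nuclei of low share, and for Myl3 the ratios were 0.919 (interval 0.801 to 1.05) and 0.840 (0.733 to 0.962). The actins stood higher in nuclei of high share, Acta1 by 1.32-fold and 1.47-fold and Actc1 by 1.29-fold and 1.41-fold. Tnni3 was at 609 CPM in nuclei of high against 1056 CPM in nuclei of low share in library 3, and at 941 CPM of high against 1692 CPM of low share in library 4, ratios of 0.576 and 0.556.

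Of 16 regulators tested, 1 was at least 2-fold higher in nuclei of high Myh7 share in both libraries, where 0.588% of genes were: Eya4, a transcription co-activator of the eyes absent family, at 2.17-fold and 2.40-fold. Its median over single nuclei was 0 CPM in both bands of library 3, and 112 CPM for high against 0 CPM for low share in library 4. Gata4, a cardiac zinc finger factor, was 1.62-fold and 1.56-fold higher, and Myocd 1.33-fold and 1.30-fold. Thrb, a thyroid hormone receptor, was at 0.901 (interval 0.740 to 1.09) and 0.650 (0.538 to 0.784) of its level in nuclei of low share. Library 1 had 27 nuclei of high share, too few for the count. In them Ankrd1 stood at 3391 CPM against 918 CPM in the nuclei of low share, Xirp2 at 526 against 297 CPM, Tnni3 at 1754 against 3182 CPM and Myh7b at 468 against 784 CPM, on the same side as in libraries 3 and 4. Myocd (838 CPM in nuclei of high against 1080 CPM in nuclei of low share) and Myl3 (1082 against 918 CPM) lay on the other side there. Eya4 was at 127 CPM in nuclei of high against 132 CPM in nuclei of low share. Nppa had 0 UMIs in nuclei of high share (interval to 35.9 CPM) against 9.58 CPM in nuclei of low share. The intervals of Myl3, Eya4 and Nppa overlapped between the bands, and those of Myocd did not. Gata4 stood at 487 CPM in nuclei of high against 369 CPM in nuclei of low share, with intervals that overlapped.

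**Figure D5:**
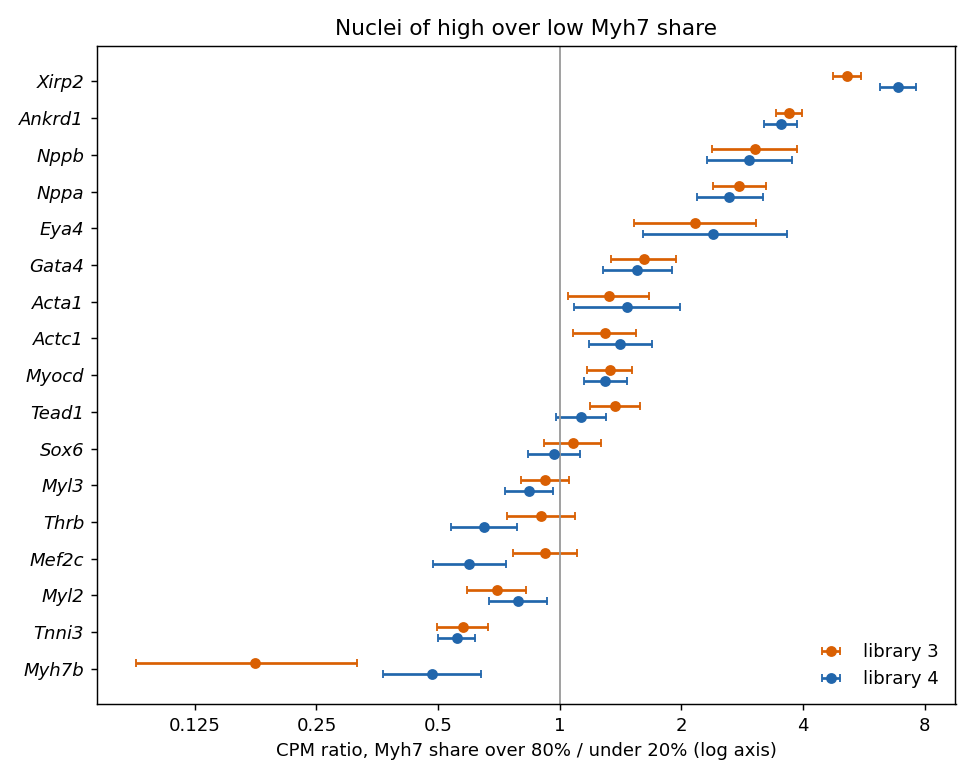
Ratio of CPM in cardiomyocyte-like nuclei with a Myh7 share over 80% to that in nuclei with a share under 20% (log axis), for named genes in libraries 3 and 4, with exact 95% intervals that cover counting error only. Xirp2 (5.15 and 6.88), Ankrd1, Nppb, Nppa and Eya4 lie over 2 in both libraries, and Tnni3 (0.576 and 0.556) and Myh7b (0.176 and 0.484) lie under 1 in both.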

How the data were processed

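The authors deposited 1 matrix of unnormalized UMI counts, with 62845195 entries and 108629374 UMIs over 48637 barcodes. The libraries were made from nuclear RNA by droplet capture and 3′ end sequencing, per the labels' protocols, so counts come from transcript ends and levels of different genes are not compared by length. The matrix was written by cellranger 5.0.1, per the file headers, while the build rn7, Cell Ranger 6.1.1 and Seurat without a version are named per the submitters' processing notes, and which build the counts rest on is unclear. Whether intronic reads were counted, and with strand, is not given in the sources used here. The symbols Ttn, Ctnna3, Pecam1, Cd79a, Myh2, Myh4, Myl6b and Mrtfb were not matched and are not analysed here.

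Barcodes were kept from 500 UMIs and 300 genes upward if mitochondrial UMIs did not exceed 10%. The highest doublet scores (scrublet in scanpy 1.11.5) were removed per library at 0.8% per 1000 nuclei, which left 8363, 12897, 14287 and 6181 nuclei. A nucleus of another class had at least 3 UMIs of its markers, 2 times those of each further class, and fewer than 3 gate UMIs. CPM are UMIs summed by class and library, over that sum's total for all genes. Ratios carry exact conditional binomial intervals. Genes tested across the matrix had at least 30 UMIs in each library over both sides compared, and differences are on the log2(CPM + 10) scale. With 1 sample a group there is no p-value.

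All 10 members and Tnni3 were named, and of each other list the 2 genes with the largest and the 2 with the smallest difference, except a gene that is not reported here. The members and lists were chosen with earlier results of these data known. The bands of Myh7 share, and the genes named in them outside the lists, were chosen after the values were seen. Some list genes were named outside the rule, with their values known. These were Myl1, Sln and the atrial markers given beside it, and in the bands Eya4, Gata4 and Thrb. The interval and log2 steps were checked on simulated data. Alternatives were other gate limits, depth limits, doublets kept, nuclei of mixed RNA left out, means of single nuclei, free RNA subtraction and no filter.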

Additional observations from a re-analysis of the deposited data

How the results depend on the processing

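Over the alternatives for the shares of Myh7 and Acta1 and the count of members, 57 of 92 values stayed within counting error and 35 moved. The Myh7 share kept the order of libraries 1, 2, 3 and 4 under all 10 alternatives. The Acta1 share was highest in library 3 under all of them, and lowest in library 1 under all but the subtraction in CPM, where library 2 was set to 0%. Limits: cardiomyocyte-like nuclei of library 2 are few, free RNA is measured only through other classes, and no replicate exists. No paired analysis was possible because each group has 1 sample and the barcodes are tied to none. The cause of the moves was not tested.

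Myh7 shares that moved were, with a gate of 5 UMIs, 22.6% in library 2; with gate genes at 0.5% of UMIs, 18.7% and 33.4% in libraries 2 and 3; without nuclei over 5000 UMIs, 11.2%, 17.6%, 32.4% and 41.7% in libraries 1 to 4. Without nuclei of mixed RNA they were 18.3%, 33.4% and 45.9% in libraries 2 to 4, and as means of single nuclei 12.4%, 23.6%, 39.4% and 52.4% in libraries 1 to 4. Subtracting the CPM of the other classes gave 15.5% in library 2.

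Acta1 shares that moved were 32.2% in library 2 with a gate of 5 UMIs and 27.2% in library 4 with a gate of 20. With gate genes at 0.5% of UMIs they were 25.7%, 39.1% and 26.8% in libraries 2 to 4. Without nuclei over 5000 UMIs they were 39.5% and 25.4% in libraries 3 and 4, without nuclei of mixed RNA 25.9%, 38.0% and 24.3% in libraries 2 to 4, and as a mean of single nuclei 39.6% in library 3. Subtracting free RNA per nucleus gave 25.9%, 37.0% and 22.5% in libraries 2 to 4. Subtracting it in CPM, an alternative added after seeing the data, gave 1.86%, 0%, 21.4% and 1.41% in libraries 1 to 4, where the 0% is a remainder below 0 that was set to 0.

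The count of members at least 2-fold higher in cardiomyocyte-like nuclei in all libraries was 3, and was 5 without library 2 and 6 in nuclei of 2000 to 5000 UMIs, both added after seeing the data. Of the other shares 19 of 143 moved, and of the CPM values 139 of 280.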

Other observations

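A feature named Mir3546, chosen after its values were seen, ran with cardiomyocyte-like nuclei. By RefSeq (GRCr8) the microRNA of that name lies inside Myh6 on the opposite strand, and without stated strand counting its reads and those of Myh6 cannot be told apart. Mir3546 stood at 29.1, 137, 13.3 and 16.02 CPM in cardiomyocyte-like nuclei of libraries 1 to 4, against 0.718, 2.96, 0.101 and 0.187 CPM in the other classes. The levels in the other classes rested on 3, 7, 2 and 2 UMIs, and the intervals of the ratio began at 13.7, 22.1, 35.3 and 22.9. Library 2 was the highest for Mir3546, whereas library 1 was the highest for Myh6.

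Besides the companions, the genes with the largest differences between nuclei of high and low Myh7 share in both libraries 3 and 4 included Tgfb2, a growth factor of matrix signalling, Lmcd1, a LIM domain protein, and Timp3, a metalloproteinase inhibitor, whose smaller log2 difference of the 2 libraries was 2.19, 2.12 and 2.02. Flnc, filamin C of the Z-disc, had 1.35. On the lower side stood Ros1, a receptor kinase (-1.80), and Sgca, alpha-sarcoglycan of the muscle membrane (-1.47). These genes were picked for their values.

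Tnni1 in library 4 had 20 UMIs in 10 endothelial-like nuclei, 3.51 CPM, and 2 UMIs in cardiomyocyte-like nuclei, 0.421 CPM.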
